A study of Mus musculus with 6 samples.

Results

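Nuclear pores and the receptors that carry cargo through them were followed in mouse CD8+ T cells exposed to palmitate. The genes were taken by symbol: every protein-coding gene named Nup, Xpo or Ipo plus a digit, every Kpna, Kpnb and Tnpo gene, and Aaas, Ndc1, Pom121, Rae1, Seh1l, Sec13 and Tpr. That gave 50 genes, 28 nucleoporins and 22 transport receptors, of which 49 had one of the 29370 rows of the gene matrix. This family was chosen by symbol with earlier results of the same comparison known, so its counts of changed genes describe these libraries and support nothing beyond that.

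Traffic between nucleus and cytoplasm passes through the nuclear pore complex, a ring-shaped assembly of nucleoporins set into the nuclear envelope. Structural nucleoporins build the rings of the scaffold, channel nucleoporins rich in phenylalanine and glycine repeats fill the centre, and others form the cytoplasmic filaments and the nuclear basket. Importins bind proteins with nuclear localisation signals, exportins bind proteins with nuclear export signals, and the GTPase Ran tells the receptors on which side of the envelope they are. T cells that are activated and divide enlarge their nuclei and assemble new pores, and transcription factors of T cell activation such as NFAT and NF-kappaB enter and leave the nucleus by these receptors.

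The cells were CD8+ T lymphocytes, the cells that kill infected or transformed targets, taken from pancreas, spleen and lymph nodes of mice of genotype WT. One group of 3 libraries was labelled Palmitate, with 100 µM of this saturated fatty acid, and the other group of 3 was labelled Control; RNA was sequenced after 48 hours. What the control cells received instead of palmitate, how many animals were used and whether their cells were pooled are not given in the sources used here. Libraries of one group are not said to have come from separate cultures or animals, so the p-values rest on spread among libraries that may be technical only.

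Gene counts summed to between 26042768 and 29362276 per control library and between 16724588 and 24777611 per palmitate library. The 10 listed genes of CD8+ T cells together held 1888 to 2327 CPM (counts scaled to a common library total) in control cells and 2565 to 2875 CPM in palmitate-treated cells. Cd4 stayed under 1 CPM in every library, and summed levels were at most 6.72 CPM for the CD4 T cell list, 5.78 CPM for the myeloid list, 2.86 CPM for the NK cell list and 2.86 CPM for the pancreatic list. The B and plasma cell list was higher, at 409 to 482 CPM in the control and 495 to 554 CPM in the palmitate libraries. Log2 fold changes of its 10 tested genes ran from −0.43 to 3.19, with a median of 0.97. Which of its genes carried the summed level is not given here. The stromal and endothelial list held 35.7 to 42.1 CPM in the control and 46.8 to 63.8 CPM in the palmitate libraries, without overlap. That level came mostly from Pecam1. Epcam was at 0, and Col1a1, Col1a2, Pdgfrb and Cdh5 were under 1 CPM, in every library. On the first principal component, which held 44.2% of the variance, control library 1 stood at −11.9 and the other control libraries at −40.4 and −32.5, with the palmitate libraries at 23.3 to 35.3.

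Nucleoporin and receptor genes took a smaller part of the RNA in palmitate-treated cells. Their rows held 1.18%, 1.22% and 1.14% of all counts in control libraries 1 to 3 and 1.09%, 1.05% and 1.04% in palmitate libraries 1 to 3, so the groups did not overlap. Of 47 members with enough reads to be tested, 20 fell and 0 rose in the quasi-likelihood test of edgeR (adjusted p under 0.05, by Benjamini and Hochberg over all 12068 genes tested). Across all genes tested, 22.9% were called in either direction, 11.7% lower and 11.1% higher. The median log2 fold change of the 47 was −0.21, against 0.019 over all genes. At an unadjusted p under 0.05 the members numbered 28 lower and 0 higher. The share of all genes at that threshold was not taken, so these 2 counts cannot be weighed against it. DESeq2 called 24 of these 47 members lower and 0 higher. It called 9.54% of 19370 genes lower, a set that also holds genes with too few reads for the edgeR test. Some of those had no adjusted p and counted as not called. That share is therefore not a like background for the 24. With limma-voom 20 members were lower and 0 higher, where 11.3% of 12068 genes were lower. In bulk RNA, fewer cells of one kind and less RNA per cell cannot be told apart.

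The falls were modest in size, and each class of the pore and its receptors held at least 1 called member. The central channel, cytoplasmic face, nuclear basket and pore membrane classes held only 1 each. In the pore membrane class 2 of 4 members had a positive fold change. The called members kept between 64.4% (Nup37) and 84.5% (Nup93) of their control mean. In 29 of the 47 members every palmitate library lay below every control library, an arrangement found in 21.2% of all genes tested. In 1 member, Tnpo2, every palmitate library lay above, and the share of all genes in that arrangement was not taken. Within the control group, library 2 gave the highest CPM for 32 of the 47 members and library 3 for 1, while the palmitate libraries gave the highest value for 16, 15 and 16 members. The plot of log2 fold changes by class shows both the called and the other members.

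**Figure D1:**
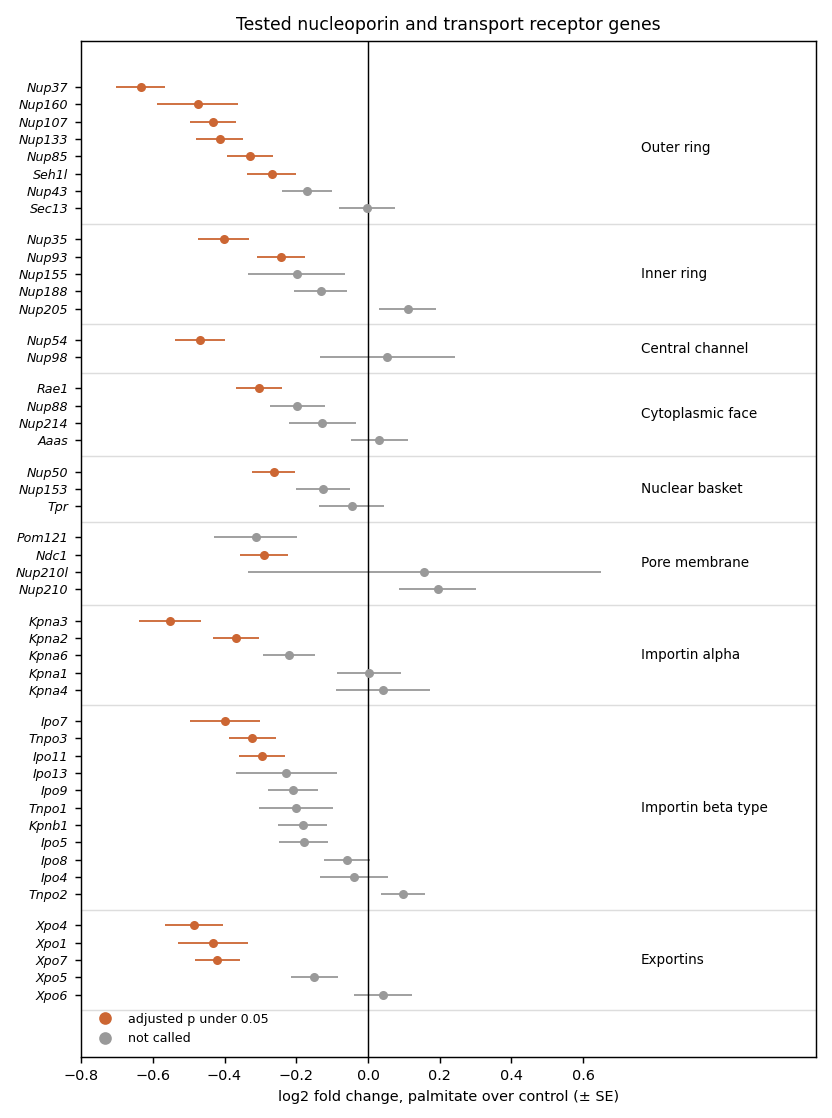
Log2 fold change of palmitate over control (x axis, with SE) for each of the 47 tested nucleoporin and transport receptor genes (y axis), grouped by their place in the pore or receptor class. Orange points are members with an adjusted p under 0.05, all of them below 0; grey points were not called and run from −0.31 (Pom121) to 0.19 (Nup210).

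Promoter sequence was examined because members of several classes were lower together. RefSeq promoter windows on the build GRCm38.p6 were matched by symbol to 40 of the 50 members, and the 250 bases before the start were searched on both strands. The letters searched were CACGTG (the E-box of the MYC family), CGCATGCG (NRF1), CCGGAAG (ETS family), CCAAT (the CCAAT box), TTTGGCGC (E2F family) and TTTGAA (the CHR element of cell cycle genes). No motif in this set contains another. Shown here are 100 bases before the start of Nup37, the member with the largest fall, of Nup107, its partner in the Y complex, and of Kpna2, the member with the highest level per length. Capitals mark matches on either strand.
Nup37: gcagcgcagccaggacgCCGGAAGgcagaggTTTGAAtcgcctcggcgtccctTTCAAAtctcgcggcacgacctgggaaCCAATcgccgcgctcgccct
Nup107: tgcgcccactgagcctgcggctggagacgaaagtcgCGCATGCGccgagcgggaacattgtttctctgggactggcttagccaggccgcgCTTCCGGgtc
Kpna2: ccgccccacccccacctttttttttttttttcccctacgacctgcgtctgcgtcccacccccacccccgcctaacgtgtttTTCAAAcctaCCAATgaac
The Nup37 stretch runs on the plus strand of chromosome 10 and holds an ETS match at position −83 from the start, the CHR letters at −69 and −47 and a CCAAT box at −20. The table holds another Nup37 window with a later start, from which the same ETS, first CHR and CCAAT letters lie at −162, −148 and −99, and which has a further ETS match at −74. The Nup107 stretch runs on the minus strand of chromosome 10 and holds the NRF1 letters at −64 and an ETS match at −10. The Kpna2 stretch runs on the minus strand of chromosome 11 from −116 to −17 and holds the CHR letters at −35 and a CCAAT box at −25.

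Some members had more than 1 window, and a gene was counted where any of its windows held a match. The 40 members with a window include Kpna7, Nup62 and Nup62cl, which were not tested and which all hold CCAAT. Nup62 also holds the NRF1 letters and Kpna7 the CHR letters. Among the 40, CCAAT was found in 50% of members against 40.8% of the 9207 tested genes with a window. The CHR letters stood in 27.5% against 13.1%, the ETS letters in 20% against 16.5%, the E-box in 12.5% against 9.92%, the NRF1 letters in 10% against 3.8% and the E2F letters in 0 against 0.934%. Over all 27025 genes with a window, tested or not, CCAAT was found in 37.5% and the CHR letters in 18.3%. There the ETS, E-box, NRF1 and E2F letters stood in 7.83%, 6.86%, 1.75% and 0.485%. Among members with a window, the CHR letters stood in 28.6% of the 14 called lower and 26.9% of the other 26. For the E-box these shares were 21.4% and 7.69%, for the ETS letters 28.6% and 15.4% and for the NRF1 letters 14.3% and 7.69%. For CCAAT they were 42.9% and 53.8%, and for the E2F letters 0 and 0. At most 6 of the 14 held any single motif, and the shares were not compared by a test. A match is a run of letters in the window and says nothing of whether a factor binds there.

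The outer ring of the pore is built from the Y complex, the scaffold subunits that coat both faces of the pore and, in dividing cells, also sit at kinetochores. Of its 8 members 6 fell, the highest count of any class, with a median log2 fold change of −0.37. Nup37 (ENSMUSG00000035351, chromosome 10), a peripheral subunit of the long arm, measured 115, 117 and 125 CPM in control libraries 1 to 3 and 73.7, 78.6 and 78.1 CPM in palmitate libraries 1 to 3. No palmitate library came near the lowest control library, and the mean was 64.4% of control (log2 fold change −0.63 ± 0.068, adjusted p = 0.00279). Nup107 (ENSMUSG00000052798, chromosome 10), a core subunit of the stem, measured 206, 203 and 199.96 CPM in the control and 149, 144 and 157 CPM in the palmitate libraries. The control values lay within a few CPM of each other and the fall was −0.43 ± 0.064 (adjusted p = 0.00548). With transcript sums and length offsets it was larger, at −0.62 (adjusted p = 0.00390). Nup133, which binds Nup107 at the end of the stem, went from 164, 158 and 157 CPM to 126, 114 and 120.1 CPM, again with no overlap (−0.41 ± 0.066, adjusted p = 0.00627).

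Nup85, a subunit of the short arm, measured 245, 228 and 236 CPM in the control and 190.2, 182 and 192 CPM in the palmitate libraries (−0.33 ± 0.065, adjusted p = 0.0123). At 229.9 ± 18.5 TPM (a level scaled by transcript length; SD, n = 3) it had the highest control level of the class. Nup160, a large subunit of the long arm, fell by more but with wider scatter (−0.47 ± 0.11, adjusted p = 0.0229). Control library 2 stood at 234 CPM and the other control libraries at 174 and 184 CPM. Seh1l, a small propeller shared with the amino acid sensing GATOR2 complex, fell by the least of the called subunits (−0.27 ± 0.069, adjusted p = 0.0278). Nup43, a propeller of the short arm, was not called (−0.17 ± 0.069, adjusted p = 0.110), although its groups did not overlap. Sec13, the subunit that also builds the COPII coat of secretory vesicles, averaged 159 CPM in the control and 159 CPM in the palmitate libraries (−0.0024, adjusted p = 0.985). The calls of Nup37, Nup107 and Nup133 were made in all 6 fits that each left out 1 library; Nup85 was called in 5 of them, Nup160 in 3 and Seh1l in 1.

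In the inner ring, which joins the scaffold to the membrane and the channel, 2 of 5 members fell. Nup35, the membrane-binding linker also known as Nup53, measured 77.5, 77.6 and 73.1 CPM in the control and 56.1, 60.3 and 56.1 CPM in the palmitate libraries. The highest palmitate value lay well under the lowest control value (−0.40 ± 0.071, adjusted p = 0.00846, called in 6 of 6 leave-one-out fits). Nup93, the hub that recruits channel nucleoporins, went from 141, 133 and 127 CPM to 112, 112 and 115 CPM (−0.24 ± 0.067, adjusted p = 0.0343). Its groups did not overlap, but none of the 6 leave-one-out fits made the call (0 of 6), and it was lost with upper-quartile scaling (adjusted p = 0.0884) and with transcript sums and length offsets (adjusted p = 0.0620). The big scaffold subunits did not pass the test. Nup205, the most abundant member of the ring per length (93.8 ± 4.83 TPM), measured 359, 373 and 338 CPM in the control and 415, 379 and 362 CPM in the palmitate libraries, with overlapping groups and a positive fold change (0.11 ± 0.079, adjusted p = 0.340). Its paralogue Nup188 stood at −0.13 (adjusted p = 0.224) and Nup155 at −0.20 (adjusted p = 0.317).

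The central channel holds the phenylalanine and glycine repeats that receptors bind on their way through. Nup54, a member of its core trimer, measured 160.2, 167 and 165 CPM in the control and 110.1, 121 and 125 CPM in the palmitate libraries. All palmitate libraries were far below all control libraries, with a mean of 72.3% of control (−0.47 ± 0.070, adjusted p = 0.00550, called in 6 of 6 leave-one-out fits). Its trimer partner Nup62 was counted from transcripts only, where it measured 125, 125 and 126 CPM in the control and 104, 105 and 113 in the palmitate libraries. That difference passed the test without length offsets (−0.22, adjusted p = 0.0349) and did not with them (−0.16, adjusted p = 0.223). The third partner, listed in the annotation as Nupl1 (Nup58) and so outside the symbol rule, was not called (−0.15 ± 0.076, adjusted p = 0.193). The matrix and the transcript tables differed for this gene: it averaged 156 CPM in the control by the matrix but only 0.2403 TPM from its matched transcripts, whose sums gave −0.87 with length offsets (adjusted p = 0.199). Nup62cl, a relative of Nup62 on chromosome X, had too few reads to test, at a mean of 0.0363 CPM in the control and 0.0531 CPM in the palmitate libraries.

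Nup98 is a mobile channel nucleoporin whose gene also encodes the Y complex subunit Nup96 by cleavage of a precursor. In the gene matrix it measured 8.91, 15.1 and 12.0 CPM in the control and 12.5, 11.4 and 13.5 CPM in the palmitate libraries, with overlapping groups (0.054 ± 0.19, adjusted p = 0.856). The matrix held only 4.29% of its transcript reads. Summed over all transcripts, Nup98 measured 245, 301 and 265 CPM in the control and 226, 251 and 247 in the palmitate libraries, and the difference was not called either (−0.18 with length offsets, adjusted p = 0.190). Transcript Nup98-203 carried 53.6% of the reads and overlapped between the groups, at 127, 163 and 134 in the control and 126, 134 and 145 in the palmitate libraries. Nup98-204 carried 24.0% and did not overlap, at 61.6, 87.6 and 87.1 against 37.4, 50.7 and 46.1 CPM, but it did not pass the test over all transcripts (−0.82 ± 0.18, adjusted p = 0.113). Its share of the gene's reads was 25.8%, 27.8% and 32.1% in the control and 16.9%, 20.4% and 18.6% in the palmitate libraries. Salmon divides reads among overlapping transcripts, and the uncertainty of that division is not part of the test.

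**Figure D2:**
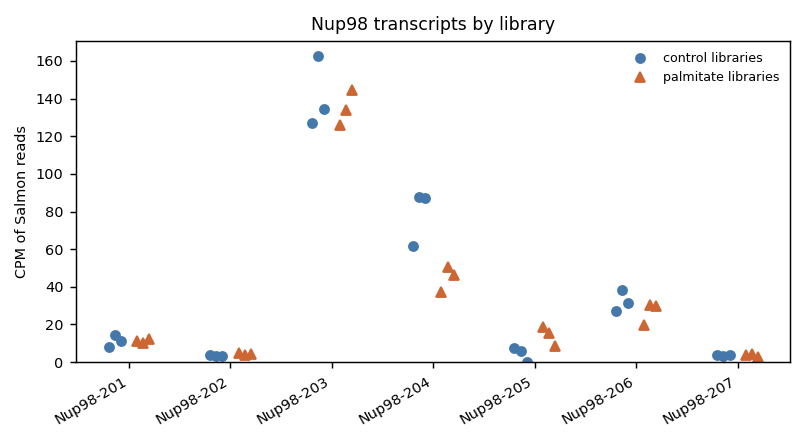
Level in CPM of Salmon reads (y axis) of the Nup98 transcripts with a mean above 1 (x axis) in each control library (blue circles) and palmitate library (orange triangles). Nup98-204 runs from 61.6 to 87.6 in the control and from 37.4 to 50.7 in the palmitate libraries, and Nup98-203 overlaps between the groups.

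On the cytoplasmic face, where exported messenger RNA is remodelled and released, 1 of 4 members fell. Rae1, an mRNA export factor that docks on Nup98 and also serves the mitotic checkpoint, measured 169.8, 175 and 173 CPM in the control and 133, 142 and 145 CPM in the palmitate libraries. The palmitate libraries all lay well below the control range (−0.30 ± 0.064, adjusted p = 0.0151, 5 of 6 leave-one-out fits). Nup88, which sits at the base of the cytoplasmic filaments, did not pass (−0.20 ± 0.077, adjusted p = 0.0994) and was called in the fit with the replicate number as a block (adjusted p = 0.0364). Its filament partner Nup214 stood at −0.13 (adjusted p = 0.349) and Aaas, which encodes ALADIN, the protein mutated in triple A syndrome, at 0.032 (adjusted p = 0.797).

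In the nuclear basket, the filaments that receive cargo on the nuclear side, 1 of 3 members fell. Nup50, a mobile factor that helps importin alpha to release its cargo, measured 116, 120.3 and 114 CPM in the control and 99.3, 96.9 and 96.0 CPM in the palmitate libraries (−0.26 ± 0.061, adjusted p = 0.0205, 2 of 6 leave-one-out fits). The groups were tight and did not overlap. Nup153, which anchors the basket and had the highest control level per length of the 3 (135 ± 14.4 TPM), measured 414, 469 and 422 CPM in the control and 414, 393 and 390.3 CPM in the palmitate libraries. The lowest control and the highest palmitate library lay almost at the same level, and the gene did not pass (−0.12 ± 0.075, adjusted p = 0.260). With transcript sums and length offsets its sign turned (0.032, adjusted p = 0.812). Tpr, the coiled coil of the basket filaments, measured 622, 732 and 607 CPM in the control and 665, 618 and 616 CPM in the palmitate libraries, and the groups overlapped (−0.046 ± 0.090, adjusted p = 0.740).

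Pore membrane nucleoporins anchor the complex in the envelope, and 1 of 4 fell. Ndc1, a transmembrane protein shared with the spindle pole body of yeast, measured 117, 130.4 and 123 CPM in the control and 101, 100.1 and 102 CPM in the palmitate libraries (−0.29 ± 0.066, adjusted p = 0.0199, 1 of 6 leave-one-out fits). The palmitate libraries lay close together, below all control libraries. Pom121 had a fold change of like size at a low level of 5.16 TPM and was not called (−0.31 ± 0.12, adjusted p = 0.0835; 0.0253 with the replicate block). Nup210 (gp210), the membrane glycoprotein whose level differs among tissues and which is known for a part in the homeostasis of naive T cells, went the other way. It measured 345, 289.6 and 290.3 CPM in the control and 399.98, 321 and 336 CPM in the palmitate libraries, with overlapping groups and no call (0.19 ± 0.11, adjusted p = 0.224). Within each replicate number the palmitate library was the higher one, and with the replicate block Nup210 was called higher (0.19, adjusted p = 0.0468). Its relative Nup210l was low in all libraries (0.685 TPM).

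Importin alpha proteins recognise the classical nuclear localisation signal and hand the cargo to importin beta. Of 5 tested adaptors 2 fell. Kpna2 (ENSMUSG00000018362, chromosome 11), the adaptor known for its rise in dividing cells, measured 803, 804 and 779 CPM in the control and 621, 614 and 611 CPM in the palmitate libraries. Both groups were tight and far apart, and the mean was 77.4% of control (−0.37 ± 0.064, adjusted p = 0.00811, 6 of 6 leave-one-out fits). Kpna3, an adaptor of the other main subfamily, fell further, from 238, 289 and 251 CPM to 169, 182 and 179 CPM (−0.55 ± 0.086, adjusted p = 0.00615, 6 of 6). Its close paralogue Kpna4 stood at 0.041 ± 0.13 (adjusted p = 0.843), with 211 CPM in the control and 217 CPM in the palmitate libraries. Kpna1, of the remaining subfamily, stood at 0.0025 (adjusted p = 0.986). Its relative Kpna6 missed the threshold at −0.22 ± 0.072 (adjusted p = 0.0598; 0.0255 with the replicate block). Kpna7, an adaptor of oocytes and early embryos, was at 0 in every library.

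Among importin beta and the other import receptors, 3 of 11 fell. Kpnb1, importin beta itself, measured 1255, 1285 and 1202 CPM in the control and 1080.5, 1123 and 1095 CPM in the palmitate libraries. The groups did not overlap, but the difference did not pass (−0.18 ± 0.068, adjusted p = 0.0869); DESeq2 gave an adjusted p of 0.00921. Ipo7, which imports ribosomal proteins and histone H1, measured 765, 970.4 and 842 CPM in the control and 621, 653 and 682 CPM in the palmitate libraries. The highest value again came from control library 2, and the call (−0.40 ± 0.10, adjusted p = 0.0247) was made in 1 of the 6 leave-one-out fits. Tnpo3, the importer of serine and arginine rich splicing factors, went from 280.3, 289.97 and 271 CPM to 219, 232 and 221 CPM (−0.32 ± 0.066, adjusted p = 0.0135, 4 of 6). Ipo11, which carries ubiquitin-conjugating enzymes, went from 171, 182 and 178 CPM to 149.9, 143 and 140.3 CPM (−0.30 ± 0.064, adjusted p = 0.0164, 4 of 6). Neither overlapped between the groups.

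The other import receptors were not called. Ipo5, an importer of ribosomal proteins and histones with 218 ± 8.64 control TPM, stood at −0.18 ± 0.068 (adjusted p = 0.0924; DESeq2 0.0154), and Ipo9, an importer of histones, at −0.21 ± 0.071 (adjusted p = 0.0661; 0.0351 with the replicate block). Tnpo1, which imports RNA-binding proteins with the PY signal, Ipo13, Ipo8 and Ipo4 had log2 fold changes of −0.20, −0.23, −0.059 and −0.040 and overlapping groups. Tnpo2, the paralogue of Tnpo1, averaged 127 CPM in the control and 136 CPM in the palmitate libraries, with every palmitate library above every control library and no call (0.10 ± 0.062, adjusted p = 0.277).

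Exportins carry cargo out of the nucleus together with Ran bound to GTP, and 3 of the 5 members fell. Xpo1 (ENSMUSG00000020290, chromosome 11), also called CRM1, the exporter of proteins with leucine-rich export signals and the target of the drug selinexor, measured 757, 938 and 869 CPM in the control and 674, 587 and 641 CPM in the palmitate libraries. The groups did not overlap, while the control libraries spanned a wide range with library 2 the highest (−0.43 ± 0.10, adjusted p = 0.0193, 2 of 6 leave-one-out fits). Xpo7, an exporter studied in red cell maturation, measured 161, 171 and 165 CPM in the control and 121, 125 and 126 CPM in the palmitate libraries (−0.42 ± 0.062, adjusted p = 0.00532, 6 of 6). Xpo4, which carries eIF5A and SMAD3, went from 289.8, 314 and 278 CPM to 222, 194 and 214 CPM (−0.49 ± 0.081, adjusted p = 0.00718, 6 of 6). Both were tight within groups and apart between them. Xpo5, the exporter of microRNA precursors, did not pass (−0.15 ± 0.065, adjusted p = 0.132), nor did Xpo6, the exporter of actin (0.042, adjusted p = 0.736). The plot of called members by library sets all 20 side by side.

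**Figure D3:**
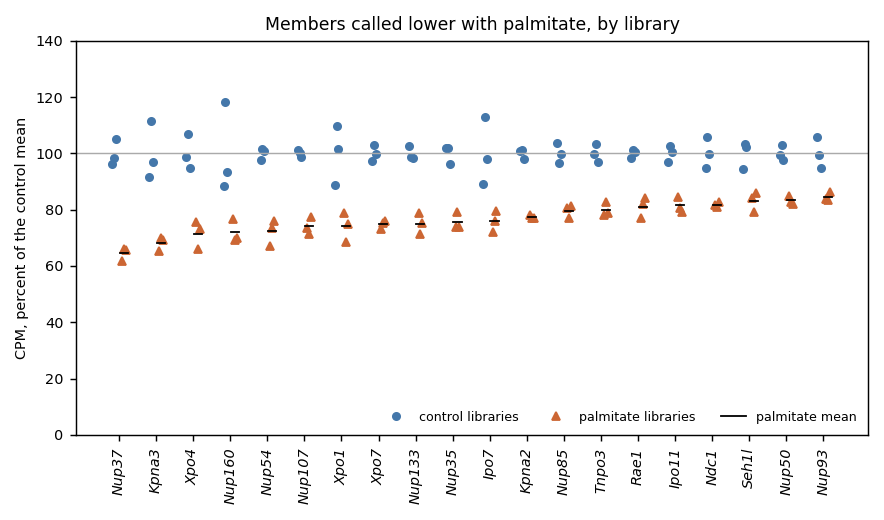
CPM of each library as a percent of the control mean (y axis, from 0) for the 20 called members (x axis, ordered by the palmitate mean). Control libraries (blue circles) lie between 88.3% and 118.4% and palmitate libraries (orange triangles) between 61.9% and 86.3%; the black line is the palmitate mean.

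Levels per length ranged widely among members. In control cells Kpna2 had the highest level, 519 ± 21.2 TPM (SD, n = 3), followed by Xpo1 (289 ± 22.0), Kpnb1 (269.7 ± 15.9), Ipo7 (245 ± 24.0), Nup85 (229.9 ± 18.5), Ipo5 (218 ± 8.64) and Nup37 (178 ± 11.5). Of these 7, 5 were called lower in the gene matrix, Kpnb1 and Ipo5 being the others. In all, 13 members were above 100 TPM in the control, 31 lay between 30 and 100 TPM, and Pom121 (5.16) and Nup210l (0.685) closed the tested list. Neighbours in this order usually could not be separated: in 11 of 48 adjacent pairs did the control libraries not overlap, among them Kpna2 over Xpo1 and Nup37 over Rae1.

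**Figure D4:**
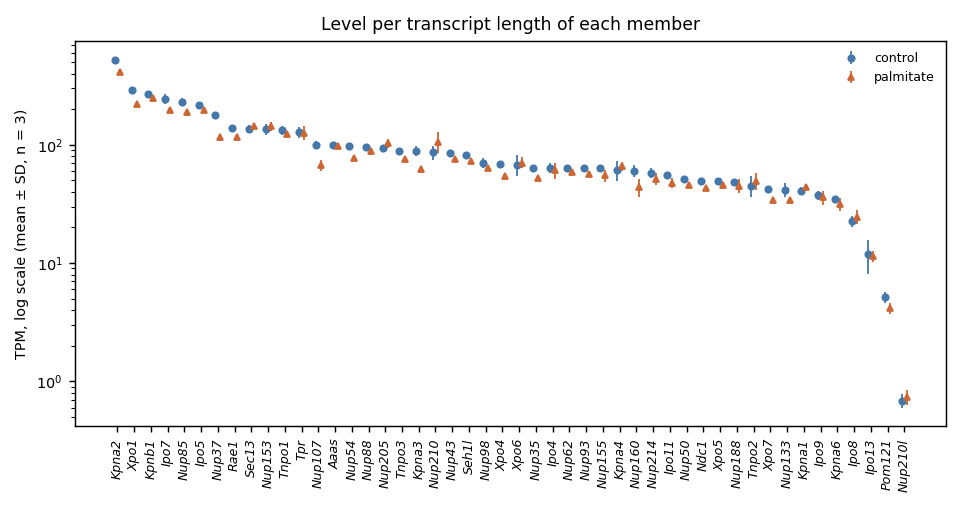
Level per transcript length in TPM (y axis, log scale, mean ± SD of 3 libraries) of the 48 members above 0.5 TPM (x axis), ordered by their control level, for control (blue) and palmitate (orange). Kpna2 leads at 519 TPM in the control and 410.1 TPM in the palmitate libraries, and Nup210l is last at 0.685 and 0.739 TPM.

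The gene matrix did not hold all transcript reads of every member, so the same comparison was made on sums of transcripts. For 8 members the matrix held under 90% of the transcript reads: Nup98, Nup155 (45.3%), Aaas (69.7%), Nup50 (74.8%), Nup210l (78.2%), Tnpo2 (84.6%), Seh1l (89.0%) and Nup93 (89.6%). Nup155, a scaffold subunit of the inner ring, measured 204, 208 and 191 CPM in the control and 187, 165 and 164 in the palmitate libraries over all its transcripts. In these sums with length offsets it was called (−0.25, adjusted p = 0.0472), which it was neither in the matrix nor in the sums without offsets (−0.22, adjusted p = 0.0631). Its leading transcripts, Nup155-204 and Nup155-201, carried 46.6% and 45.6% of its reads; the first did not overlap between the groups (97.0, 96.0 and 92.2 against 79.7, 85.5 and 73.7 CPM) and the other did. Seh1l narrowly missed the threshold in the sums with length offsets (−0.22, adjusted p = 0.0510) and was called in those without them (−0.24, adjusted p = 0.0260). Over all members the sums called 19 lower with length offsets and 23 lower without them, and 0 higher in both. Of all genes tested in these sums, 10.4% and 13.5% were called lower.

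No single transcript of a member passed the test. Of 359 transcripts, 260 had enough reads, and edgeR called 0, as it called 0 of all 39468 transcripts tested. At an unadjusted p under 0.05, 40 member transcripts were lower and 1 was higher. Of all 39468 transcripts tested, 6269 were under that threshold in either direction. Those lower numbered 3339, or 8.46% of all transcripts tested. The smallest adjusted p of a member transcript was 0.0609. In 28 of 49 members 1 transcript carried over 80% of the reads.

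**Figure D5:**
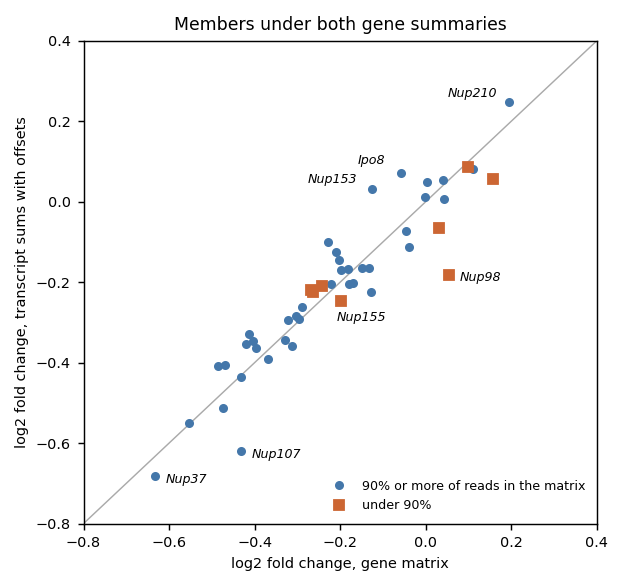
Log2 fold change of palmitate over control for each member in the gene matrix (x axis) and in sums of its transcripts with length offsets (y axis); the grey line marks equal values. Orange squares are the members for which the matrix held under 90% of transcript reads. Nup98 lies below the line, at 0.054 in the matrix and −0.18 in the sums, and Nup107 at −0.43 and −0.62.

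Genes that work with the pore were read from lists of 66 genes outside the symbol rule, of which 65 were tested; 20 fell and 5 rose, where 11.7% of all genes tested were called lower and 11.1% higher. In the Ran cycle, which gives transport its direction, 4 of 8 genes fell. Ran itself measured 1528, 1544 and 1589 CPM in the control and 1131, 1229.9 and 1221 CPM in the palmitate libraries (−0.38 ± 0.071, adjusted p = 0.0102). Ranbp1, which helps Ran to hydrolyse GTP, went from 374, 403 and 392 CPM to 297, 311 and 305 CPM (−0.36 ± 0.067, adjusted p = 0.0101). Rcc1, the chromatin-bound exchange factor that loads Ran with GTP, went from 227, 218 and 215 CPM to 171, 177 and 185 CPM (−0.31 ± 0.065, adjusted p = 0.0153). None of these overlapped between the groups. Rangrf (MOG1), which releases nucleotide from Ran, was the remaining gene called (−0.41 ± 0.10, adjusted p = 0.0252). Rangap1, the GTPase activating protein at the cytoplasmic face, was not called, with every palmitate library above every control library (0.13 ± 0.062, adjusted p = 0.166).

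Of nucleoporins and karyopherins with other names, 3 of 7 tested fell. Cse1l, the exportin that returns importin alpha to the cytoplasm, measured 384, 399.5 and 398 CPM in the control and 311, 288 and 304 CPM in the palmitate libraries (−0.39 ± 0.067, adjusted p = 0.00811, 6 of 6 leave-one-out fits). Ahctf1 (ELYS), which seeds pore assembly on chromatin, fell less (−0.28 ± 0.079, adjusted p = 0.0359), as did Snupn, the import adaptor of spliceosomal particles (−0.26 ± 0.081, adjusted p = 0.0489). Upper-quartile scaling lost both calls (adjusted p = 0.0626 and 0.102), and transcript sums with length offsets lost that of Snupn (adjusted p = 0.0925). Ranbp2 (Nup358), the SUMO ligase of the cytoplasmic filaments, measured 707, 862 and 725 CPM in the control and 799, 662 and 714 CPM in the palmitate libraries and overlapped between them (−0.077 ± 0.10, adjusted p = 0.626). Xpot, the exporter of transfer RNA, was at 0 in the gene matrix in every library although its transcripts averaged 207 ± 40.4 TPM in the control (SD, n = 3). In the transcript sums with length offsets it was called lower (−0.63, adjusted p = 0.0232). Nupl2 (Nup42), a cytoplasmic nucleoporin listed under that symbol, fell from 24.4, 28.4 and 25.8 CPM to 19.6, 19.97 and 18.1 CPM (−0.45 ± 0.095, adjusted p = 0.0155).

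Among 24 genes of mRNA export, 7 fell and 1 rose, beside 11.7% lower and 11.1% higher over all genes. The called genes with the smallest adjusted p were Thoc6 (−0.51 ± 0.091, adjusted p = 0.00861) and Thoc1 (−0.41 ± 0.092, adjusted p = 0.0179), subunits of the THO complex that couples transcription to export, and Nxt1 (−0.39 ± 0.078, adjusted p = 0.0130), the partner of the main export receptor. That receptor, Nxf1, was not called (−0.069, adjusted p = 0.524). Sem1, a subunit of the TREX-2 complex and of the proteasome, was the one that rose (0.28 ± 0.083, adjusted p = 0.0411). In the SUMO cycle, which acts at the pore, 4 of 8 fell, among them Uba2, a subunit of the SUMO activating enzyme (−0.42 ± 0.070, adjusted p = 0.00725), and the SUMO protease gene Senp1 (−0.24 ± 0.062, adjusted p = 0.0288). Leaving out each library in turn, Senp1 was called in 1 of 6 fits, and its call was lost with upper-quartile scaling (adjusted p = 0.0783) and with transcript sums and length offsets (−0.13, adjusted p = 0.301); in those sums Thoc1 fell by less (−0.23, adjusted p = 0.0424).

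In the list of the nuclear lamina and envelope, 4 of 16 genes rose and 1 fell, with a median log2 fold change of 0.093. Over all genes tested, 11.1% were called higher and 11.7% lower. Of the 5 called genes of the list, 0 were called in all 6 leave-one-out fits. Lmna and Sun2 were called in 3 of these fits and Syne2 in 2. Lmna, which encodes lamins A and C, rose from a low level, from 1.14, 1.60 and 1.44 CPM to 2.38, 3.62 and 3.70 CPM (1.21 ± 0.26, adjusted p = 0.0165). Sun2, which spans the inner membrane and links lamina to cytoskeleton, rose from 79.8, 58.0 and 67.3 CPM to 136, 94.1 and 107 CPM (0.72 ± 0.16, adjusted p = 0.0224), and its outer membrane partner Syne2 from 11.9, 8.90 and 8.32 CPM to 18.6, 13.3 and 14.4 CPM (0.67 ± 0.18, adjusted p = 0.0329). In each, palmitate library 1 or 3 was the highest and no palmitate library reached down to the control range. With transcript sums and length offsets Sun2 was not called (0.48, adjusted p = 0.232), and the rise of Syne2 was larger (1.4203, adjusted p = 0.0157). Lmnb1, the B-type lamin, was the gene that fell (−0.27 ± 0.074, adjusted p = 0.0351; 0.0741 with upper-quartile scaling).

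Genes of cell division moved in the same comparison. Of 16 listed S phase genes 8 fell and 0 rose, and their summed level was 5838 to 5959 CPM in the control and 4823 to 5068 CPM in the palmitate libraries. Of 16 genes of G2 and mitosis 8 fell and 0 rose, with sums of 4326 to 4562 CPM and 3534 to 4322 CPM. Of the CD8+ T cell list 7 of 10 genes rose and 0 fell, and of the B and plasma cell list 3 of 10 tested rose and 0 fell. Of the CD4 T cell list 1 of 2 tested genes rose. The sums of that list were 1.96 to 2.81 CPM in the control and 3.70 to 6.72 CPM in the palmitate libraries. Pecam1, the 1 tested gene of the stromal and endothelial list, rose. Over all genes tested, 11.7% were called lower and 11.1% higher. The part of cell division, and of these cell markers, in the falls of nucleoporin and receptor genes was not tested.

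Which library entered the fit changed how many members were called. Leaving out control library 3 left 9 members lower, and leaving out palmitate library 3 left 11. The share of all genes called lower went to 2.8% and 5.18%, and the share called in either direction to 5.59% and 10.6%. Of the 20 called members, 9 were called in all 6 leave-one-out fits: Nup37, Nup107, Nup133, Nup35, Nup54, Kpna2, Kpna3, Xpo4 and Xpo7. The share of all called genes with a call in each of these fits was not taken. Of the 25 called genes of the pathway lists, 3 were called in all 6 such fits (Cse1l, Thoc6 and Uba2), and without control library 3 or palmitate library 3 the lists held 3 and 7 called genes. With the replicate number as a block, 24 members were called lower and 1 higher, where 16.6% and 16.5% of all genes were. Upper-quartile scaling moved the median of all genes from 0.019 to 0.077. It left 38.9% of all calls on the lower side, against 51.3% with the TMM scaling used here. With that scaling 19 members were lower and 0 higher, where 8.72% of all genes were lower.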

How the data were processed

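Per the labels' protocols, RNeasy kits gave the total RNA and a SMARTER mRNA-Seq kit the libraries. GRCm39 is the build in the submitters' processing notes, with Salmon 1.10.0, Trim Galore 0.6.10 and DESeq 1.42.0 as tools; settings, annotation and strand handling are not given in the sources used here. Expected counts of genes, in whole numbers, were deposited as one matrix, and the authors deposited for each library a Salmon table with expected counts and TPM of 116224 transcripts. Symbols came from the GENCODE M21 annotation, an earlier build, so no gene coordinates are given; 29134 of 29370 matrix rows and 114857 transcripts (98.82%) matched. No matrix column was unused (0), and 0 rows named no gene.

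All 12068 genes left by edgeR's low-count filter were fitted together (R 4.3.3, edgeR 4.0.16, TMM scaling, robust quasi-likelihood test, group as the single term, all 6 libraries), with Benjamini-Hochberg adjustment at 0.05. The scripts were tested on simulated data. CPM used TMM-scaled library sizes. Transcript counts were rounded and tested in the same way. Alternatives were RLE and upper-quartile scaling, limma-voom (limma 3.58.1), DESeq2 1.42.0, no filter, a 5 CPM minimum mean, a replicate block, transcript sums with and without length offsets, and leaving out each library. Salmon divides reads shared by paralogues, so such members (Kpna3 and Kpna4, Tnpo1 and Tnpo2, Nup210 and Nup210l) are uncertain to that extent.

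Both groups are numbered 1 to 3 in the labels. Each library's deviation from its group mean was correlated across genes with those of the other group. Same-numbered libraries gave 0.226, 0.130 and 0.152, and the others −0.185 to 0.0608. Deviations within a group balance each other, so higher values for the same numbers push the others down. No stated design pairs the libraries, so the main fits left the number out and the replicate block was run as an alternative. Replicates differed by more than sampling noise (chi-square per gene 11.2 to 37.2). Depth limits precision for low members such as Nup210l.

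The members and lists were chosen with earlier results of these data known. Values in every library are given for up to 4 called members of a class with the smallest adjusted p, the member with the highest control TPM of each class, and Kpna2, Kpnb1, Xpo1, Nup98, Nup153 and Tpr. Of the other lists, up to 3 called genes with the smallest adjusted p are named, with Ran, Ranbp2 and Cse1l. One gene that this rule selects is not reported here. Other genes named were chosen after their values were seen.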

Additional observations from a re-analysis of the deposited data

How the results depend on the processing

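The count of members called lower stayed within 1.5 times of 20 under RLE and upper-quartile scaling, both filters, DESeq2, limma-voom, the replicate block and both transcript sums, at 19 to 24. With the replicate block 25 members were called, 1 of them higher (Nup210), against 0 higher without it. In the fits that each left out 1 library, 9 to 19 members were called in either direction and likewise 9 to 19 lower, with the fewest without control library 3. The count of pathway genes called, 25 in all, was 31 with the replicate block and ran from 3 to 28 in the leave-one-out fits. The share of all genes called moved too, from 22.9% to 33.1% with the replicate block and, in the leave-one-out fits, to between 5.59% (without control library 3) and 27.8% (without control library 1). For single members, DESeq2 added 4 calls and the replicate block 5; upper-quartile scaling lost 1 and transcript sums with length offsets lost 2 and gained 1. The causes were not tested. Member transcripts called stayed at 0 in every fit run.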
